A study of Mus musculus with 18 samples.

Results

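The levels of 10 genes that mark the endothelium, the cell layer that lines blood vessels, were followed through RNA sequencing of sorted mouse trachea and lung cells. The genes were Sox17, Erg, Kdr, Tek, Cdh5, Emcn, Egfl7, Sparcl1, Gimap4 and Gimap6, which are 10 of the 27179 genes counted. They were chosen by name and matched through their Entrez identifiers, and the choice rested partly on measured values: reads of Sox17, Gimap4 and Sparcl1 were present in the lung populations and absent from basal cells. The difference between lung and basal cells is therefore a description, and only the lung populations were compared by a test.

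The study profiled 6 populations from untreated young adult male C57BL/6 mice, with 3 libraries each, and each library came from 1 mouse. From the tracheas of mice 1 to 3 came basal stem cells (BSC), sorted as NGFR-positive, and Non-basal cells, sorted as NGFR-negative. From the lungs of mice 4 to 6 came 4 populations: airway CD24hi cells (EpCAM-positive, CD104-positive, enriched in ciliated cells), airway CD24lo cells (same gate with low CD24, enriched in club cells), alveolar cells (EpCAM-positive, CD104-low) and EpCAM-negative cells, which are not epithelial. The study's methods describe staining of lung cells for CD45 and CD31, the surface proteins of leukocytes and endothelium, and name both as negative for alveolar cells. The sample labels name EpCAM, CD104 and CD24 for the lung gates but not CD31, so whether each sequenced population was gated against CD31 is not given in the sources used here. The tracheal libraries held 29317215 to 32993621 counted reads and the lung libraries 9811503 to 13208897. By the study's methods the tracheal epithelium was peeled off after dispase and then treated with trypsin, whereas lungs were minced and digested with collagenase. Organ, mouse, depth and cell preparation change together, so they cannot be told apart between trachea and lung.

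Endothelial cells are held together by VE-cadherin, respond to vascular endothelial growth factor and angiopoietin through receptor tyrosine kinases, and keep their identity through transcription factors of the ETS and SOX families. The lung holds a dense bed of capillaries wrapped around the alveoli, and larger vessels run beside the airways. Sparcl1 is also made by fibroblasts and mural cells, and Gimap4 and Gimap6 by lymphocytes.

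Erg, one of the 10 genes, encodes a factor of the ETS family, whose members bind the letters GGAA, and the promoters of 4 other members are shown for that reason. The sequences are from RefSeq on build GRCm38.p6 and each covers the 250 bases before an annotated start, read in the direction of the gene. A check of the direction against transcript sequences passed for Gimap4, Emcn and Egfl7, but for Gimap6 it found no match on either strand. Capitals mark GGAA on either strand, written as GGAA or TTCC. Gimap4 lies at chr6:48684328-48684577 on the plus strand, Gimap6 at chr6:48708245-48708494 on the minus strand, Emcn at chr3:137340828-137341077 and the first start of Egfl7 at chr2:26580833-26581082, both on the plus strand. The last bases of the Emcn window lie inside the annotated gene.
Gimap4: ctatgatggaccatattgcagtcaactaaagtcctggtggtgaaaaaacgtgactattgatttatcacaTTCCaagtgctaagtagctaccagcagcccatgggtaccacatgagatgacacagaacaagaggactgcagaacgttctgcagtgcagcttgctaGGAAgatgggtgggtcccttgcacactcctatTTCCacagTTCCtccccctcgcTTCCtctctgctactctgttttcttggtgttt
Gimap6: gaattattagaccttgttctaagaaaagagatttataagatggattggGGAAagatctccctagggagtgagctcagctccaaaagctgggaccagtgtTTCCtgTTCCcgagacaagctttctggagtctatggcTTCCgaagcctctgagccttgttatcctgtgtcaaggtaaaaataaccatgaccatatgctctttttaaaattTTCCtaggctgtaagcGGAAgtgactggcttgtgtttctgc
Emcn: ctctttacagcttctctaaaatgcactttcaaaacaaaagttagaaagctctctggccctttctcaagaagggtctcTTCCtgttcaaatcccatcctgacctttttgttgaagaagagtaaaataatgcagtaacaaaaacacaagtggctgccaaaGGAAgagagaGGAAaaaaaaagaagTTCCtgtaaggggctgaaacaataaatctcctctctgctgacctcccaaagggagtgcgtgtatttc
Egfl7: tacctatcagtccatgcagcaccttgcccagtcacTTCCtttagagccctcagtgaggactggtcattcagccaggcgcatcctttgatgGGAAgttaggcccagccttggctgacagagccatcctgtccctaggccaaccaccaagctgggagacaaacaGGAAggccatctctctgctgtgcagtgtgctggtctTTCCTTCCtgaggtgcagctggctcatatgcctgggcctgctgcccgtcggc

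GGAA occurred 5 times in the Gimap4 window, 6 times in that of Gimap6, 4 times in that of Emcn and 5 times in that of Egfl7. Of the 11 windows matched to members these 4 are among those with the most matches, since the other windows held 3 and 1 (further starts of Egfl7), 2 (Tek), 4 (Kdr) and 0, 4 and 2 (starts of Erg). The motif is short, and 93.4% of the 32851 RefSeq promoter windows of the same length held at least 1 match, with a median of 3. The longer CAGGAAG, which contains GGAA, was present 2 times in Egfl7 and 1 time in Emcn, and 4 of the 11 member windows and 10.8% of all windows held it. The SOX core ACAAT, searched because Sox17 is a member, was found 1 time in Emcn, 0 times in the other 3 printed windows, in 3 of the 11 member windows and in 27.7% of all windows. Both strands were searched, and a match here is a description of the letters only. Windows were matched for 7 of the 10 members.

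Libraries of the same group were not equally alike. Over all genes, the chi-square per degree of freedom between airway CD24hi libraries was 33.2 and 39.6 for mouse 4 against mice 5 and 6 and 5.54 between mice 5 and 6. For airway CD24lo the same values were 24.2 and 24.8 against 7.43. Among alveolar libraries that of mouse 5 stood apart, at 38.1 and 36.2 against 5.70 between mice 4 and 6. The EpCAM-negative libraries differed least, at 3.51 to 7.50. In the trachea mouse 1 stood apart, at 23.3 and 29.6 against 5.68 for BSCs and 21.5 and 21.1 against 5.23 for Non-basal cells. Test results for the lung are given with and without these lung libraries, and no tracheal library was left out singly.

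The transcripts of the surface proteins used in the gates were followed in the sorted populations. Cd24a had 19100 to 30402 reads in airway CD24hi and 5415 to 6667 in airway CD24lo libraries. Ngfr had 4558 to 5066 reads in BSC and 303 to 490 in Non-basal libraries. Epcam had 43, 43 and 51 reads in the EpCAM-negative libraries of mice 4, 5 and 6 and 1537 to 3607 in the other lung libraries. Itgb4, the CD104 chain, had 3111 to 4658 reads in airway CD24hi, 664 to 1276 in airway CD24lo and 28 to 53 in EpCAM-negative and alveolar libraries. Pecam1, which encodes CD31, was present in every lung library, with 2316, 1110 and 560 reads in airway CD24hi, 2611, 849 and 680 in airway CD24lo, 2314, 1857 and 1681 in EpCAM-negative and 452, 835 and 498 in alveolar cells of mice 4, 5 and 6. Ptprc, which encodes CD45, had 29 to 122 reads in the EpCAM-positive lung libraries and 155 to 520 in the EpCAM-negative ones. In bulk samples such as these, fewer cells of a type and less RNA per cell cannot be told apart.

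In the BSCs of the trachea the 10 genes were at or near 0. Sox17, Gimap4, Sparcl1, Cdh5, Erg and Emcn had 0 reads in all 3 BSC libraries. Gimap6 had 0, 3 and 0 reads there and Kdr 2, 0 and 1. Tek had 23, 20 and 15 reads in BSCs and Egfl7 14, 15 and 15, which corresponds to 0.117 ± 0.0248 and 0.253 ± 0.0079 RPKM (SD, n = 3), where RPKM is reads scaled to gene length and library size. Against the limit that a count of 0 allows, 3 counts over the 3 BSC libraries or 0.0281 CPM (reads scaled to library size), the mean of the EpCAM-negative libraries was at least 662-fold higher for Sox17, 823-fold for Gimap4, 5879-fold for Cdh5, 539-fold for Erg, 486-fold for Emcn and 176227-fold for Sparcl1. These limits cover counting error only. Those of Sox17, Gimap4 and Sparcl1 rest on the values by which these genes were picked and only describe that choice.

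Non-basal tracheal cells held more of most members but less of Egfl7, with Gimap4 at a mean of 2.13 CPM against 8.51 in alveolar cells. Sox17 again had 0 reads in each library, while Gimap4 had 96, 43 and 49 reads in mice 1, 2 and 3 and Gimap6 had 55, 25 and 24. Cdh5 had 0, 2 and 12 reads, Erg 1, 1 and 2, Emcn 4, 2 and 4, Kdr 8, 11 and 13, Egfl7 2, 3 and 8, Tek 52, 29 and 40, and Sparcl1 38, 13 and 67. By reads, both GTPases and Tek were highest in mouse 1, the Non-basal library that stood apart over all genes. Cdh5, Sparcl1, Kdr, Egfl7 and Erg were highest in mouse 3, and Emcn was equal in mice 1 and 3. Gimap3, a further gene of the same GTPase family, had 120, 60 and 59 reads, and the lymphocyte protease Gzma 89, 65 and 50. The summed level of 12 lymphocyte genes followed the same order at the top, at 30.3 CPM in mouse 1 and 16.9 and 17.9 in mice 2 and 3, and its part in the Gimap reads was not tested.

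**Figure D1:**
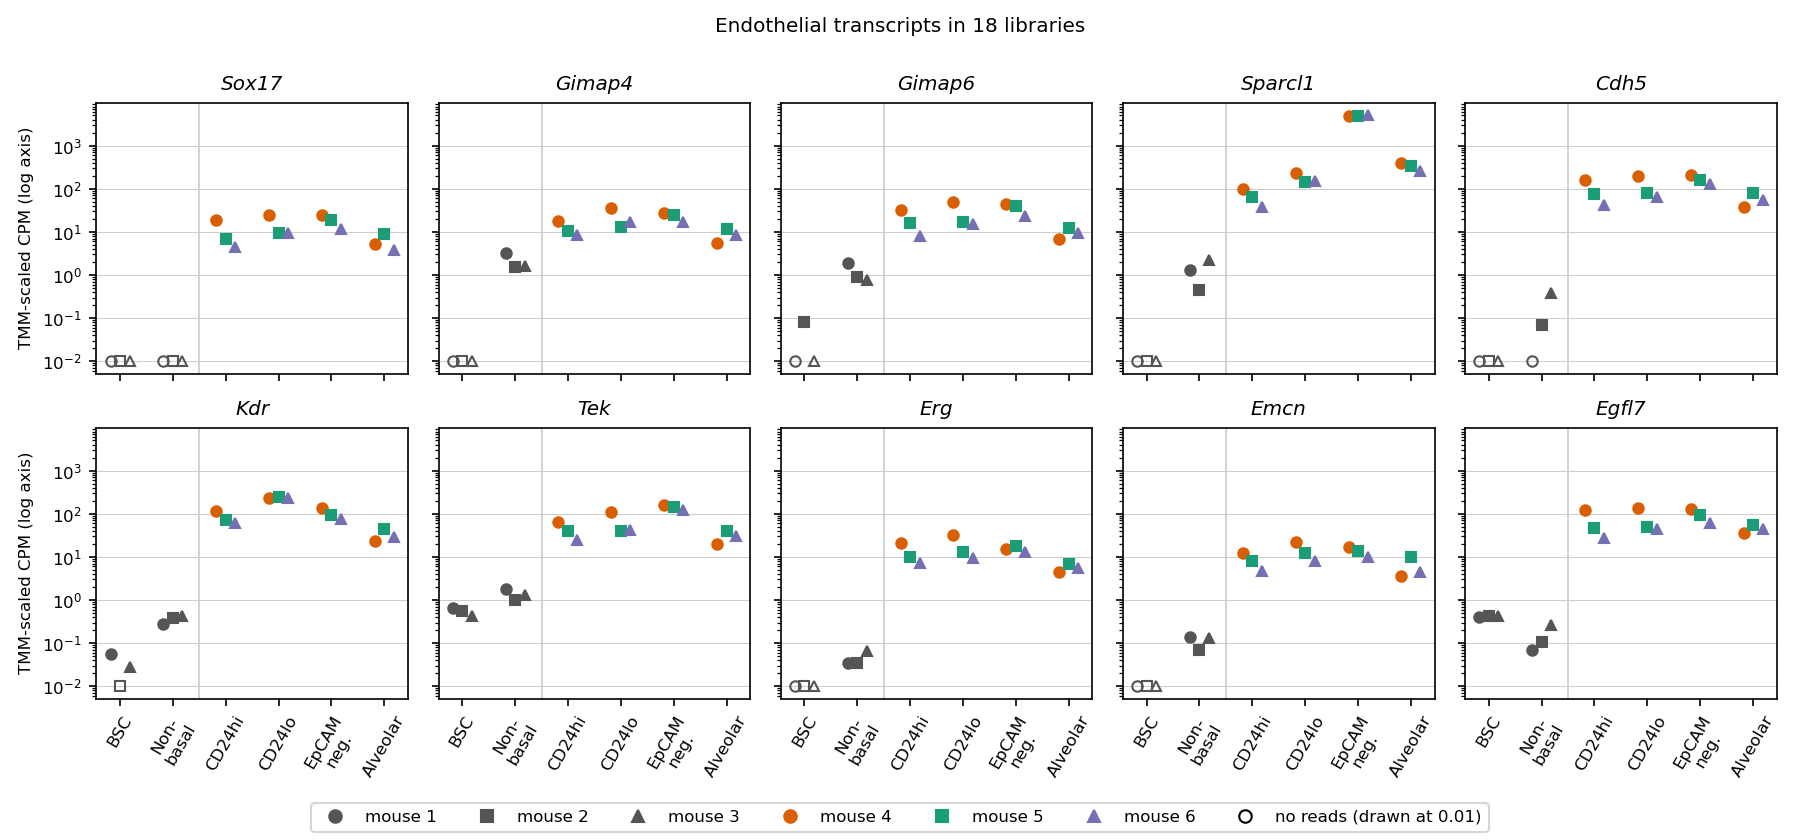
Level of each of the 10 genes in the 18 libraries, as TMM-scaled CPM on a log axis, with 1 point per library, marker shape for the mouse and hollow points for libraries with no reads. Each gene's tracheal points lie below its lung points, the highest being Gimap4 in Non-basal cells of mouse 1 at 3.27 CPM. Sparcl1 in the EpCAM-negative libraries, at 4830 to 5098 CPM, stands above every other value.

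Every lung library held reads of every member. The lowest count was 37 reads of Sox17 in the alveolar library of mouse 6, with an exact Poisson 95% interval of 26.05 to 51.0. All 10 genes passed the filter on low counts.

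The transcription factors were among the members with the lowest levels. Sox17, a SOX factor of arterial endothelium (identifier 20671, chr1:4490928-4497426), was measured at 18.5, 6.82 and 4.56 CPM in airway CD24hi cells of mice 4, 5 and 6. Its level was 24.9, 9.52 and 9.56 CPM in airway CD24lo, 24.9, 19.1 and 11.9 in EpCAM-negative and 5.20, 8.83 and 3.74 in alveolar cells. The EpCAM-negative values all lay above the alveolar ones and overlapped with both airway groups. Per length the group means ran from 5.95 ± 2.08 RPKM in EpCAM-negative through 4.68 ± 2.83 in airway CD24lo and 3.18 ± 2.39 in airway CD24hi to 1.89 ± 0.839 in alveolar cells (SD, n = 3), and no step between neighbours in this order passed the test. In the GENCODE annotation 16.8% of the Sox17 exon bases are shared with the predicted gene Gm37587. Reads were counted on a different annotation, the RefSeq one built into Rsubread, and an effect of the overlap on the counts was not tested.

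Erg (identifier 13876, chr16:95359169-95586600), an ETS factor needed for endothelial identity, was measured at 20.8, 9.93 and 7.08 CPM in airway CD24hi and 31.7, 12.7 and 9.56 in airway CD24lo cells of mice 4, 5 and 6. In EpCAM-negative cells it had 14.9, 17.5 and 13.02 CPM, and in alveolar cells 4.49, 6.72 and 5.55. Its 2 airway groups spanned the EpCAM-negative range, and all 9 of those values lay above the alveolar ones. Its mean was 8.11 ± 5.41 RPKM in airway CD24lo, 6.84 ± 1.02 in EpCAM-negative, 5.70 ± 3.28 in airway CD24hi and 2.52 ± 0.502 in alveolar cells. The first 3 did not differ by the test, and each of the 3 was higher than in alveolar cells.

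The receptors behaved differently from each other. Kdr (identifier 16542, chr5:75932827-75979072), the main signalling receptor for VEGF-A, was measured at 231.9, 238.5 and 230.3 CPM in airway CD24lo cells of mice 4, 5 and 6. The other populations held 117.1, 70.9 and 61.7 CPM in airway CD24hi, 135.9, 92.4 and 74.9 in EpCAM-negative and 23.8, 45.5 and 29.4 in alveolar cells. The 3 airway CD24lo values lay above all others and close together, and the 3 alveolar values lay below all others. Per length its mean was 42.8 ± 0.793 RPKM in airway CD24lo, 18.5 ± 5.76 in EpCAM-negative, 15.3 ± 5.44 in airway CD24hi and 6.03 ± 2.06 in alveolar cells, and only EpCAM-negative and airway CD24hi were neighbours that did not differ by the test.

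Tek (identifier 21687, chr4:94739086-94874976), the receptor of the angiopoietins, was measured at 162.4, 142.9 and 122.8 CPM in EpCAM-negative cells. The other populations held 65.4, 39.5 and 24.8 CPM in airway CD24hi, 112.2, 40.7 and 41.6 in airway CD24lo and 19.7, 40.7 and 30.4 in alveolar cells. All EpCAM-negative values lay above those of the other 3 groups, which overlapped one another. The means were 30.7 ± 4.26, 9.28 ± 4.41, 13.9 ± 8.82 and 6.50 ± 2.25 RPKM in that order.

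Of the surface genes, Cdh5 (identifier 12562, chr8:104101613-104144504), which encodes VE-cadherin, was measured at 161, 76.5 and 42.6 CPM in airway CD24hi and 198, 77.9 and 64.6 in airway CD24lo cells of mice 4, 5 and 6. The values were 205.7, 161.6 and 128.3 CPM in EpCAM-negative and 38.2, 80.6 and 53.4 in alveolar cells. In both airway groups the mouse 4 value reached the EpCAM-negative range, and those of mice 5 and 6 lay within the alveolar range. The means were 41.5 ± 9.74 RPKM in EpCAM-negative, 28.5 ± 18.4 in airway CD24lo, 23.4 ± 15.3 in airway CD24hi and 14.4 ± 5.39 in alveolar cells, and no step between neighbours passed the test.

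Emcn (identifier 59308, chr3:137341062-137431069), is the sialomucin endomucin of capillaries and veins. Its CPM was 12.5, 7.85 and 4.64 in airway CD24hi, 22.7, 12.3 and 7.83 in airway CD24lo, 17.3, 13.5 and 10.2 in EpCAM-negative and 3.53, 9.94 and 4.44 in alveolar cells. The EpCAM-negative range lay inside that of airway CD24lo cells. Their means were 9.75 ± 5.21 and 9.36 ± 2.42 RPKM, against 5.71 ± 2.71 in airway CD24hi and 4.09 ± 2.37 in alveolar cells.

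Among the secreted proteins, Egfl7 (identifier 353156, chr2:26581083-26592682), an endothelial matrix protein, was measured at 119.9, 46.8 and 27.0 CPM in airway CD24hi and 139.2, 49.9 and 44.8 in airway CD24lo cells. The values were 126.9, 93.9 and 62.1 CPM in EpCAM-negative and 35.8, 55.2 and 43.4 in alveolar cells. The mouse 4 values of both airway groups lay close to the EpCAM-negative maximum, and the other airway values overlapped the alveolar ones. Its means were 58.0 ± 19.9 RPKM in EpCAM-negative, 47.9 ± 32.7 in airway CD24lo, 39.7 ± 30.1 in airway CD24hi and 27.6 ± 6.02 in alveolar cells. Other genes, among them Agpat2 and the microRNA gene Mir126a, share 11.2% of its exon bases in GENCODE, and an effect on the counts was not tested.

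Sparcl1 (identifier 13602, chr5:104079108-104114088), a secreted matrix glycoprotein, had the widest range. It was measured at 4830, 4927 and 5098 CPM in EpCAM-negative cells of mice 4, 5 and 6. It was measured at 98.7, 64.1 and 38.5 CPM in airway CD24hi, 226, 140.4 and 154.7 in airway CD24lo and 393.8, 334.8 and 254.3 in alveolar cells. No groups overlapped. It was the only member with a higher mean in alveolar than in airway cells, at 105.1 ± 22.5 RPKM against 55.7 ± 14.7 in airway CD24lo and 21.5 ± 9.69 in airway CD24hi, and its EpCAM-negative mean was 1589 ± 43.5 RPKM.

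Gimap4 and Gimap6 encode GTPases of the immunity-associated protein family, known from lymphocytes and also made by endothelium, and they are neighbours on 1 chromosome (identifiers 107526 and 231931, chr6:48684578-48692062 and chr6:48701583-48708244). Gimap4 was measured at 17.7, 10.2 and 8.34 CPM in airway CD24hi, 35.5, 12.9 and 16.8 in airway CD24lo, 27.7, 24.5 and 17.2 in EpCAM-negative and 5.55, 11.6 and 8.38 in alveolar cells. Gimap6 was measured at 31.9, 15.8 and 8.02 CPM, 48.0, 17.4 and 15.4, 45.2, 39.3 and 23.9, and 6.79, 12.3 and 9.39 in the same order. Both were lowest on average in alveolar cells, at 4.70 ± 1.67 and 5.89 ± 1.72 RPKM, and highest in EpCAM-negative cells, at 12.8 ± 2.97 and 22.4 ± 6.82 RPKM. Airway CD24lo lay between, at 12.01 ± 6.69 and 16.7 ± 11.3 RPKM, as did airway CD24hi, at 6.68 ± 2.75 and 11.5 ± 7.56.

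The lung populations were compared with edgeR's quasi-likelihood test, with Benjamini-Hochberg adjustment over the 17989 genes tested and an adjusted p under 0.05 as the threshold. EpCAM-negative cells held more of all 10 members than alveolar cells, and 0 were lower. Over all genes, 32.7% were higher and 29.2% lower in this comparison, and the members' median log2 fold change was 1.57 against 0.01 for all genes. Sparcl1 rose most, by 3.92 ± 0.37 on the log2 scale (SE; adjusted p = 1.23e-07), followed by Tek with 2.24 ± 0.37 (adjusted p = 4.94e-05) and Gimap6 with 1.93 ± 0.48 (adjusted p = 0.00211). The other 7 rose by 1.07 to 1.64, and Egfl7 was closest to the threshold with 1.07 ± 0.45 (adjusted p = 0.0486). Without the alveolar library of mouse 4, 6 of 10 passed, and Sox17, Cdh5, Emcn and Egfl7 were lost (adjusted p = 0.0537 to 0.144). Egfl7 was lost as well without the EpCAM-negative library of mouse 4 or 5 or without any alveolar library (adjusted p = 0.055 to 0.18). Sox17 was also lost without the EpCAM-negative library of mouse 4 or the alveolar library of mouse 6 (adjusted p = 0.0603 and 0.0699), and so was Emcn (adjusted p = 0.09 and 0.0992).

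Against airway CD24hi cells, EpCAM-negative cells held more of Sparcl1, Tek and Gimap4 by the test, with log2 fold changes of 6.20 ± 0.41, 1.72 ± 0.36 and 0.93 ± 0.39 (adjusted p = 1.09e-09, 0.000384 and 0.0408). That is 3 of 10 higher and 0 lower, against 36.7% higher and 35.6% lower over all genes. For the other 7 the fold changes were 0.26 to 0.96 (adjusted p = 0.0662 to 0.562). With the mouse as a block, 6 of 10 were higher, the added ones being Sox17 at 1.02, Gimap6 at 1.07 and Cdh5 at 0.96 (adjusted p = 0.0141, 0.0165 and 0.036). Without the airway CD24hi library of mouse 4, 9 of 10 were higher, and Kdr was among them with 0.60 (adjusted p = 0.0236) while Erg was not. Without the airway CD24hi library of mouse 5 or 6, or the EpCAM-negative library of mouse 4 or 5, the call of Gimap4 was lost (adjusted p = 0.0869 to 0.14), which left 2 of 10. Without the EpCAM-negative library of mouse 6, Gimap6 was added at 1.15 (adjusted p = 0.0478).

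Against airway CD24lo cells, Sparcl1 and Tek were higher in EpCAM-negative cells, by 4.83 ± 0.38 and 1.13 ± 0.36 on the log2 scale (adjusted p = 1.65e-08 and 0.0105), and Kdr was lower, at -1.21 ± 0.24 (adjusted p = 0.000332). This makes 2 of 10 higher and 1 lower, against 32.1% and 31.4% of all genes. The other 7 lay between -0.26 and 0.54 (adjusted p = 0.329 to 0.892). Without the airway CD24lo library of mouse 4, 5 of 10 passed, with Gimap6 at 1.14 and Cdh5 at 1.21 added (adjusted p = 0.0326 and 0.0284). Without that of mouse 5 or mouse 6 the call of Tek was lost, with 0.84 and 0.86 (adjusted p = 0.0704 and 0.0683).

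Between the airway populations, Kdr and Sparcl1 were lower in CD24hi than in CD24lo cells, at -1.49 ± 0.25 and -1.37 ± 0.34 on the log2 scale (adjusted p = 5.71e-05 and 0.00268). The count was 0 of 10 higher and 2 lower, against 27.8% and 27.2% of all genes. The other 8 had fold changes from -0.85 to -0.28 (adjusted p = 0.078 to 0.633). Without the CD24hi library of mouse 4, 9 of 10 were lower in CD24hi cells and Cdh5, at -0.93, was not. Without the CD24lo library of mouse 5 or 6, 1 more gene was lower in CD24hi cells, Gimap4 at -1.12 or Emcn at -1.06 (adjusted p = 0.0286 and 0.0464).

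Airway CD24hi cells held more Kdr and Erg than alveolar cells, by 1.34 ± 0.25 and 1.18 ± 0.43 on the log2 scale (adjusted p = 0.000174 and 0.0257), and less Sparcl1, at -2.29 ± 0.35 (adjusted p = 2.68e-05). This was 2 of 10 higher and 1 lower, against 30.5% and 31.4% of all genes. The call of Erg was lost without the airway CD24hi library of mouse 4, at 0.61, and without the alveolar library of mouse 4 or 6 (adjusted p = 0.207, 0.09 and 0.0593). Without the CD24hi library of mouse 6, Gimap6 passed at 1.33 (adjusted p = 0.0204).

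Airway CD24lo cells differed more from alveolar cells. In them 6 of 10 members were higher and 1 was lower, against 24.2% of all genes in each direction. Kdr rose by 2.83 ± 0.26 on the log2 scale (adjusted p = 7.72e-08), Erg by 1.70 ± 0.43 (adjusted p = 0.0038), Gimap6 by 1.51 ± 0.49 (adjusted p = 0.0159) and Gimap4 by 1.36 ± 0.41 (adjusted p = 0.0117). Emcn and Tek rose by 1.26 ± 0.43 and 1.10 ± 0.37 (adjusted p = 0.0244 and 0.0204), and Sparcl1 was lower at -0.92 ± 0.33 (adjusted p = 0.0324). Sox17, Cdh5 and Egfl7, with 1.31, 0.99 and 0.80, did not pass (adjusted p = 0.0608, 0.101 and 0.158). With the mouse as a block, Sox17 passed at 1.20 (adjusted p = 0.0162) and Tek did not at 0.94 (adjusted p = 0.0552). Without the airway CD24lo library of mouse 4, 3 of 10 passed, with Gimap4, Gimap6, Tek and Emcn lost (adjusted p = 0.0998 to 0.268). Without the alveolar library of mouse 4, 2 of 10 passed, Kdr and Erg. Without the alveolar library of mouse 6, 5 passed, Tek and Emcn being lost (adjusted p = 0.052 and 0.0888). The call of Sparcl1 was lost without the airway CD24lo library of mouse 5 or 6 and without the alveolar library of mouse 4 or 5 (adjusted p = 0.118, 0.101, 0.116 and 0.0672), and Sox17 passed without the airway CD24lo library of mouse 5 or 6 or the alveolar library of mouse 5 (adjusted p = 0.0444, 0.0483 and 0.0444).

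**Figure D2:**
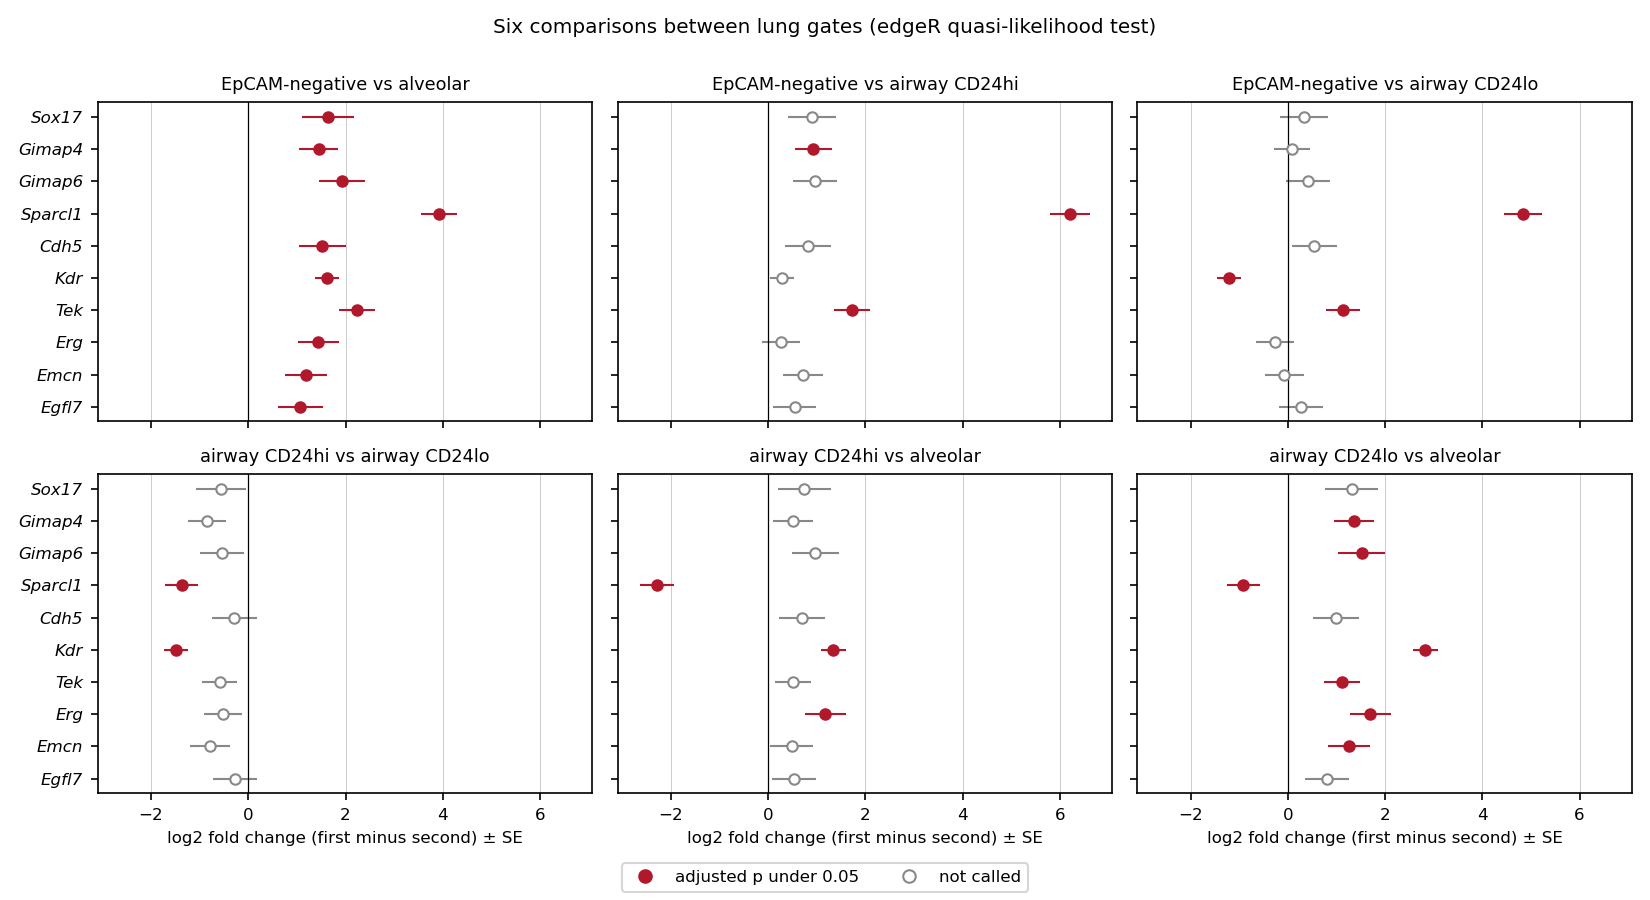
Log2 fold change of each member in the 6 comparisons among lung populations, with bars for the SE of the edgeR fit and filled red points where the adjusted p was under 0.05. All 10 points are filled in the comparison of EpCAM-negative with alveolar cells, and Kdr lies on the opposite side of 0 from Sparcl1 and Tek in that of EpCAM-negative with airway CD24lo cells.

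Across the 6 comparisons 28 of the 60 member values passed the test. Over all genes 24.2% to 36.7% were higher and 24.2% to 35.6% lower in these comparisons, so the pooled count was not above the share of all genes. On the log2 scale the members had a median of 0.86 for EpCAM-negative against airway CD24hi, 0.30 against airway CD24lo, -0.58 for airway CD24hi against CD24lo, 0.62 for airway CD24hi against alveolar and 1.29 for airway CD24lo against alveolar cells, and the median of all genes lay between -0.061 and 0.0427 in these. Leaving out all 4 lung libraries of mouse 4, an alternative chosen after seeing the data, moved 3 of the counts by more than 1.5 times: 9 of 10 members were then higher in EpCAM-negative than in airway CD24hi cells, 5 were higher and Kdr lower than in airway CD24lo cells, and 3 passed between airway CD24lo and alveolar cells. In that last comparison Kdr kept 2.64 and Erg 0.86 (adjusted p = 5e-09 and 0.0102), while Gimap4, Gimap6, Emcn and Tek had 0.56, 0.59, 0.48 and 0.21 (adjusted p = 0.166, 0.193, 0.297 and 0.405). Erg then had 0.48 between airway CD24hi and alveolar cells (adjusted p = 0.105). Emcn was lost between EpCAM-negative and alveolar cells, at 0.72 (adjusted p = 0.0932). Shares over all genes were taken from the main fit only, so none stands beside the counts of this or the other alternatives.

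In airway CD24hi cells the library of mouse 4 was the highest of the 3 for all 10 members, and in airway CD24lo cells for 9 of 10, with Kdr as the exception. Over all genes tested, mouse 4 was highest for 52.0% and 39.9%. The median ratio of mouse 4 to mouse 6 was 2.82 and 2.80 for the members and 1.09 and 1.02 for all genes. In EpCAM-negative cells mouse 4 was highest for 8 of 10 members, all but Sparcl1 and Erg, against 32.2% of all genes. In alveolar cells mouse 5 was highest for 9 of 10, all but Sparcl1, against 30.7% of all genes.

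Of 28 other endothelial genes, among them Pecam1, Cldn5 and Flt1, 27 were highest in mouse 4 in airway CD24hi, 28 in airway CD24lo and 26 in EpCAM-negative cells, and 27 were highest in mouse 5 in alveolar cells. Fibroblast genes were highest in mouse 4 for 8 of 10 in both airway groups and for 9 of 10 in alveolar cells, and mural genes for 10 of 10 and 7 of 10 in the airway groups, with 9 of 10 highest in mouse 5 in alveolar cells. Lymphocyte genes were highest in mouse 4 for 10 of 12 and 9 of 12 in the airway groups, but myeloid genes only for 5 of 12 and 3 of 12. In EpCAM-negative cells mouse 4 was highest for 1 of 10 fibroblast, 1 of 10 mural, 4 of 12 lymphocyte and 0 of 12 myeloid genes. Epithelial genes were highest in mouse 4 for 8 of 10 in airway CD24hi and 3 of 10 in airway CD24lo cells.

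Set against the EpCAM-negative library of the same mouse, the members fell into 3 patterns. Sparcl1 reached 0.756% to 2.04% of the EpCAM-negative level in airway CD24hi, 2.85% to 4.68% in airway CD24lo and 4.99% to 8.15% in alveolar cells. Kdr reached 76.7% to 86.2%, 170.6% to 307.7% and 17.5% to 49.2%, so that it exceeded the EpCAM-negative level in airway CD24lo cells of every mouse. The summed CPM of the other 8 members reached 32.6% to 71.6%, 45.5% to 97.95% and 19.1% to 44.1%.

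Those 8 were not uniform either. Tek was the lowest of them in both airway groups by the low end of its range, at 20.2% to 40.2% in airway CD24hi and 28.4% to 69.1% in airway CD24lo cells, and it reached 12.2% to 28.5% in alveolar cells. Erg was the highest in the airway groups by the high end, at 54.4% to 139.5% and 72.4% to 212.1%, with 30.1% to 42.6% in alveolar cells. Cdh5 lay between with 33.2% to 78.3%, 48.2% to 96.3% and 18.6% to 49.9%, and Egfl7 with 43.4% to 94.5%, 53.1% to 109.7% and 28.2% to 69.9%.

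**Figure D3:**
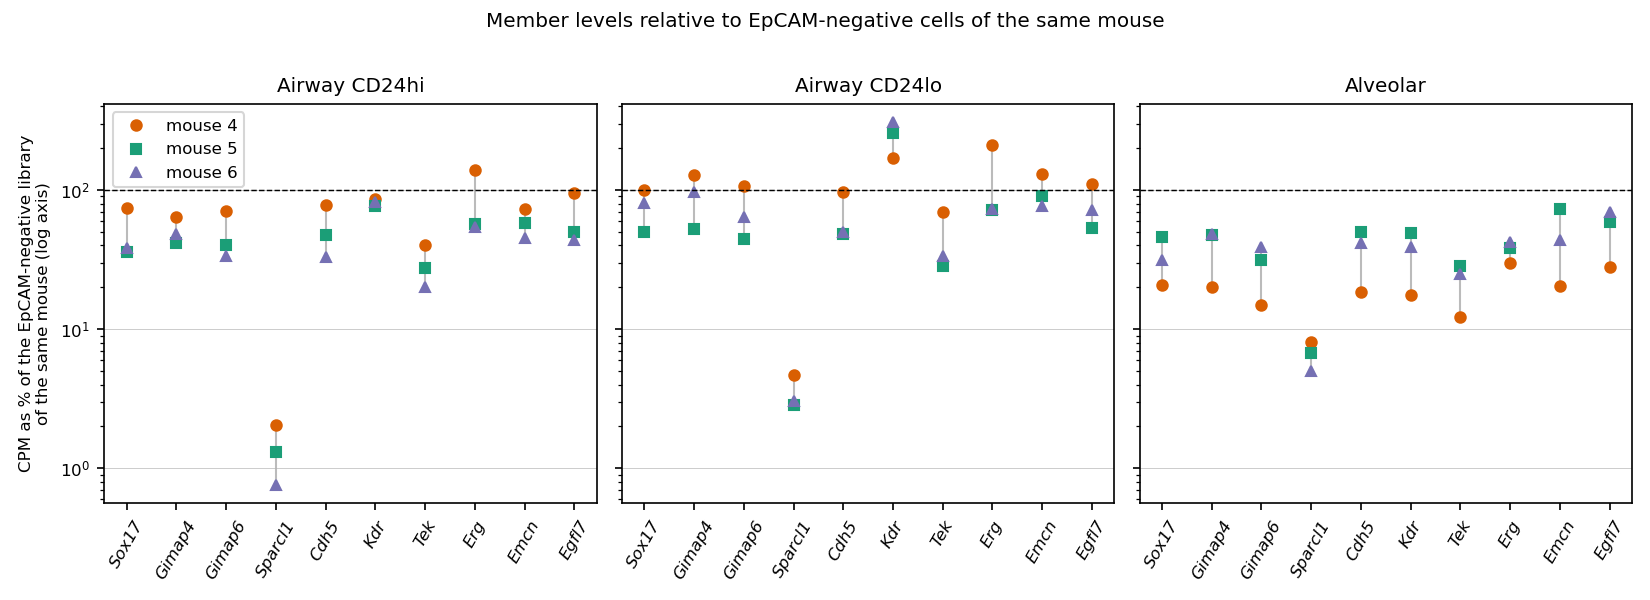
Level of each member in airway CD24hi, airway CD24lo and alveolar cells as a percent of the EpCAM-negative library of the same mouse, with 1 point per mouse and a dashed line at 100%. Sparcl1 lies at 0.756% to 8.15% in all 3 populations, and Kdr lies above the line in airway CD24lo cells of the 3 mice.

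The ratio of a member's reads to those of Cdh5 in the same library does not depend on depth. Kdr had 0.661, 0.572 and 0.583 reads per Cdh5 read in EpCAM-negative cells of mice 4, 5 and 6 and 0.622, 0.564 and 0.550 in alveolar cells. It had 0.728, 0.926 and 1.45 in airway CD24hi and 1.17, 3.06 and 3.57 in airway CD24lo cells. The EpCAM-negative and alveolar ranges overlapped, and both airway ranges lay above them.

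Sparcl1 had 23.5, 30.5 and 39.7 reads per Cdh5 read in EpCAM-negative cells, 10.3, 4.15 and 4.76 in alveolar, 1.14, 1.803 and 2.40 in airway CD24lo and 0.613, 0.837 and 0.906 in airway CD24hi cells, with no overlap between groups. Tek had 0.790, 0.885 and 0.957 in EpCAM-negative cells and 0.406 to 0.644 in the other 9 lung libraries. Egfl7 stayed between 0.484 and 0.936 in all 12 lung libraries. In both airway groups the lowest ratio of Kdr and of Sparcl1 was that of mouse 4, the mouse with the most Cdh5.

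**Figure D4:**
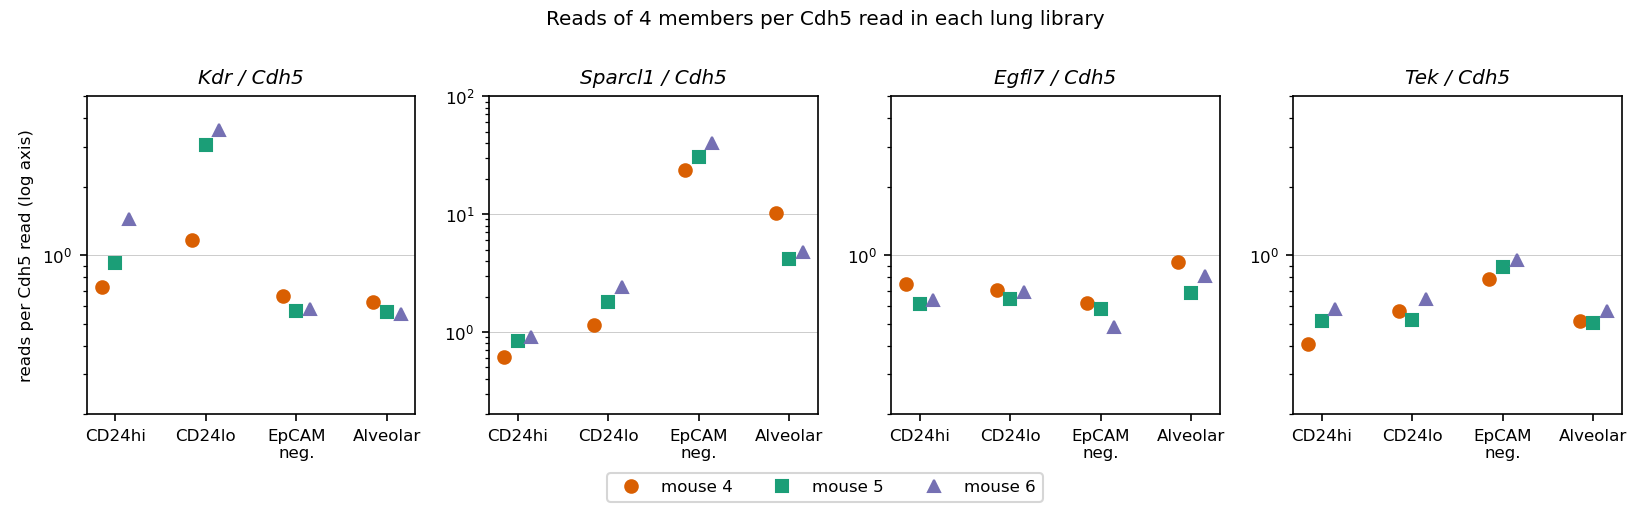
Reads of Kdr, Sparcl1, Egfl7 and Tek per read of Cdh5 in the 12 lung libraries, with marker shape for the mouse. Kdr rises to 3.57 in airway CD24lo cells and stays between 0.550 and 0.661 in EpCAM-negative and alveolar cells, whereas Egfl7 stays between 0.484 and 0.936.

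The lists of other cell types give the setting of these values. The 28 other endothelial genes summed to 1871, 861.9 and 519.0 CPM in airway CD24hi cells of mice 4, 5 and 6, 2701, 934.3 and 881.9 in airway CD24lo, 3346, 2933 and 2477 in EpCAM-negative and 622.3, 1071 and 779.6 in alveolar cells. As a percent of EpCAM-negative cells in the same mouse this was 21.0% to 55.9%, 31.9% to 80.7% and 18.6% to 36.5%. These percents lean on single genes. Cd34, which fibroblasts also make, had a mean of 769.4 CPM in EpCAM-negative cells, and Esam had 179.6 in alveolar and 65.2 in EpCAM-negative cells. The sum held high and low libraries in the same order within each gate as the 8 members did, at 447.7, 213.4 and 126.9 CPM in airway CD24hi, 612.2, 233.1 and 210.1 in airway CD24lo, 625.0, 512.3 and 389.5 in EpCAM-negative and 119.3, 225.9 and 158.7 in alveolar cells.

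The 10 fibroblast genes, led by Dcn, Col3a1 and Mfap4, summed to 31460 to 32980 CPM in EpCAM-negative cells and to 0.447% to 1.19%, 1.91% to 2.73% and 2.67% to 4.49% of that in airway CD24hi, airway CD24lo and alveolar cells. These percents rose in the same order of gates as those of Sparcl1, and their part in the Sparcl1 values was not tested. The 10 mural genes, led by Acta2, Tagln and Myh11, reached 1.39% to 3.92%, 5.53% to 10.8% and 2.86% to 4.27%. The 6 mesothelial genes, led by Msln, Upk3b and Lrrn4, stood at 195% to 253% of the EpCAM-negative sum in airway CD24lo cells, the population in which Kdr was also above it, at 14.67% to 40.07% in airway CD24hi and 10.56% to 13.33% in alveolar cells. That sum was carried by Msln, with a mean of 83.6 CPM in airway CD24lo and 22.2 in EpCAM-negative cells, and Msln also reached 2627 CPM in tracheal Non-basal cells. Of the 6, 2 (Msln and Muc16) were lower in EpCAM-negative than in airway CD24lo cells, Wt1 was higher and 3 were not called. The part of these genes' cells in the Kdr values was not tested. None of the fibroblast, mural and mesothelial genes was at 0 in all libraries of a lung population.

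The lymphocyte list summed to 93.4, 107.3 and 25.4 CPM in EpCAM-negative cells of mice 4, 5 and 6 and to 14.8 to 35.8 in the other lung libraries. The alveolar libraries, at 30.3 to 35.8, were carried by Cd79b, with a mean of 24.3 CPM there and 6.54 in EpCAM-negative cells. Cd79b went against its list (log2 fold change of EpCAM-negative against alveolar -1.90, edgeR adjusted p = 9.25e-05). The other 11 genes were higher in EpCAM-negative than in alveolar cells, against 32.7% of all genes. In mouse 6, where the lymphocyte sum was lowest among EpCAM-negative cells, Gimap4 and Gimap6 were lowest too, as were 9 of the 10 members. The 8 blood genes measured, led by Hba-a2, Hbb-bs and Alas2, summed to 667.6, 189.0 and 84.1 CPM in EpCAM-negative cells and to 10.2 to 86.6 in the other lung libraries. The 12 myeloid genes, led by Tyrobp, Laptm5 and Fcer1g, summed to 56.05 to 146.4 CPM in EpCAM-negative cells and 32.2 to 58.9 in the other lung libraries. The part of these cells in the members' values was not tested.

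**Figure D5:**
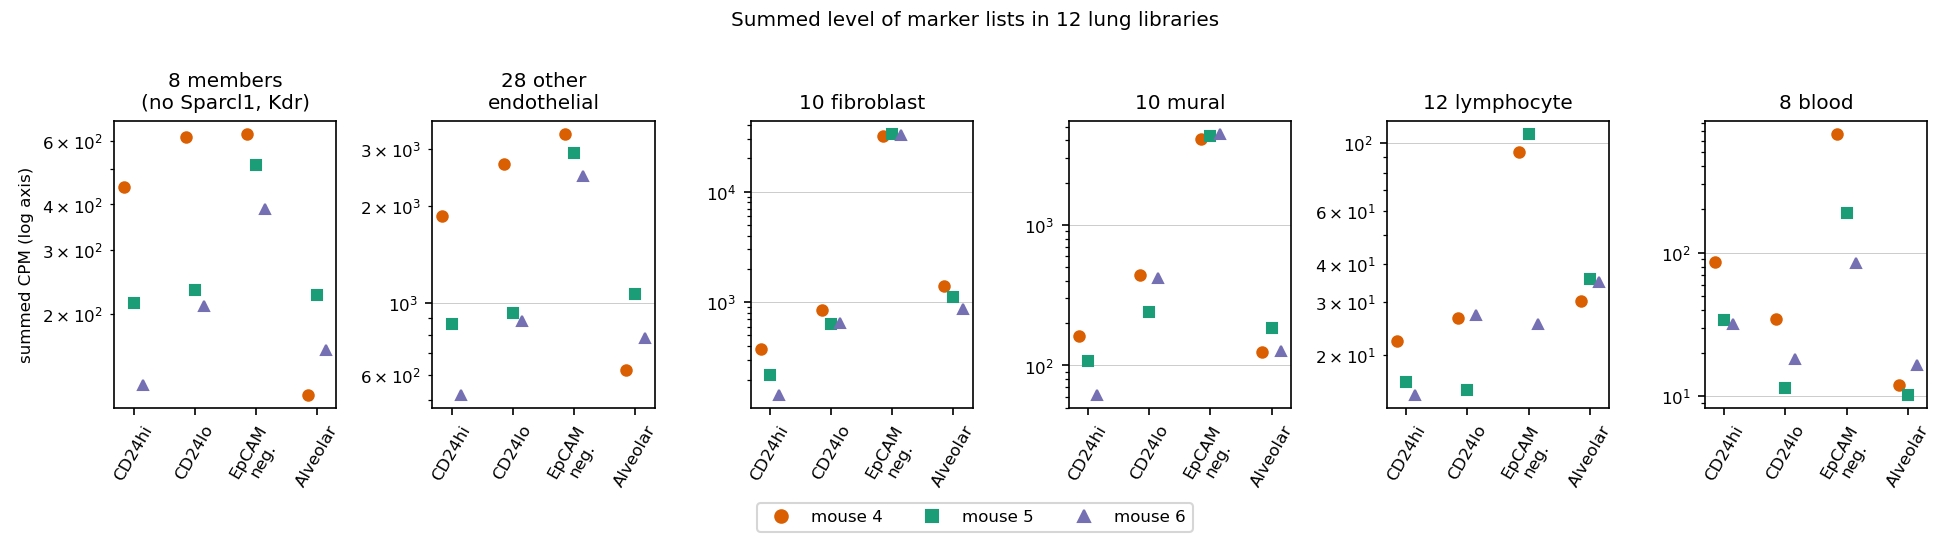
Summed CPM, on a log axis, of 8 members (without Sparcl1 and Kdr), 28 other endothelial genes and the fibroblast, mural, lymphocyte and blood lists in the 12 lung libraries, with marker shape for the mouse. Both endothelial sums are highest for mouse 4 in the airway and EpCAM-negative libraries and for mouse 5 in alveolar cells.

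Of the 28 other genes of the endothelium, 25 were higher and 1 lower in EpCAM-negative than in alveolar cells, 9 were higher than in airway CD24hi cells and 4 (Eng, Acvrl1, Fli1 and Cd34) were higher than in airway CD24lo cells, with 0 lower in both. In airway CD24lo against alveolar cells 14 were higher and 1 lower, in airway CD24hi against alveolar cells 2 were higher (Nos3 and Icam2) and 1 lower, and between the airway groups 2 (Calcrl and Cd34) were lower in CD24hi. The shares of all genes higher and lower were 32.7% and 29.2%, 36.7% and 35.6%, 32.1% and 31.4%, 24.2% and 24.2%, 30.5% and 31.4%, and 27.8% and 27.2% in the same order, so that 9 and 4 of 28 against the airway groups did not exceed the shares over all genes. The medians were 1.58, 0.74, 0.37, 1.19, 0.80 and -0.40 on the log2 scale in that order. The list was led in EpCAM-negative cells by Cd34 at 293.5, Ramp2 at 104.2 and Acvrl1 at 85.6 RPKM, and Cd34 is also made by fibroblasts. The gene that went the other way was Esam, a junction protein, with 96.9 ± 4.30 RPKM in alveolar and 35.2 ± 8.12 in EpCAM-negative cells (log2 fold change -1.46, adjusted p = 0.00349).

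Of the Gimap family, 6 further GTPases were measured. In EpCAM-negative cells 5 of 6, all but Gimap7, were higher than in alveolar cells, 2 (Gimap3 and Gimap8) than in airway CD24hi and 1 (Gimap3) than in airway CD24lo cells, and 0 were lower, against 32.7%, 36.7% and 32.1% of all genes higher in these comparisons. Airway CD24lo cells held more of 4 (Gimap1, Gimap5, Gimap8 and Gimap9) than alveolar cells and airway CD24hi cells more of 2 (Gimap1 and Gimap9), against 24.2% and 30.5% of all genes. Between the airway groups 1, Gimap8, was lower in airway CD24hi than in CD24lo cells, at -0.90 (adjusted p = 0.0475), against 27.2% of all genes. Gimap1, Gimap8 and Gimap3 led with 4.59, 3.86 and 3.66 RPKM in EpCAM-negative cells.

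The ligands, receptors and co-receptors around Kdr and Tek formed a list of 12 genes, of which Flt1 and Tie1 are also among the 28 endothelial genes and Flt4 also among the lymphatic ones. Of these, 9 were higher and 1 lower in EpCAM-negative than in alveolar cells, and 8 were higher and 0 lower than in each airway group. The shares of all genes were 32.7% and 29.2% against alveolar, 36.7% and 35.6% against airway CD24hi and 32.1% and 31.4% against airway CD24lo cells. Airway CD24hi cells held less of 5 than airway CD24lo cells (Vegfa, Pgf, Angpt1, Nrp1 and Nrp2) and less of 5 than alveolar cells (Vegfa, Vegfb, Angpt1, Nrp1 and Nrp2), with 0 higher in either. Airway CD24lo cells held more of 3 (Figf, Vegfc and Flt1) and less of 3 (Vegfb, Nrp1 and Nrp2) than alveolar cells, where 24.2% of all genes were called in each direction. Lower in airway CD24hi cells were 27.2% of all genes against airway CD24lo and 31.4% against alveolar cells. Angpt1, the ligand that activates Tek, was higher in EpCAM-negative cells than in the other lung populations, with log2 fold changes of 3.35 against alveolar (adjusted p = 8.47e-12), 5.62 against airway CD24hi (adjusted p = 5.34e-14) and 3.71 against airway CD24lo cells (adjusted p = 3.38e-12). The list was led in EpCAM-negative cells by Figf (the ligand VEGF-D) at 98.4, Vegfa at 79.8 and the co-receptor Nrp1 at 76.8 RPKM. Vegfa, the ligand of Kdr, was measured at 84.8 ± 9.98 RPKM in airway CD24lo and 24.0 ± 10.2 in airway CD24hi cells (log2 fold change of CD24hi against CD24lo -1.82, adjusted p = 5.62e-07), and between EpCAM-negative and airway CD24lo cells it had -0.09 (adjusted p = 0.719). Vegfb was the gene lower in EpCAM-negative than in alveolar cells, with 17.2 ± 0.541 against 35.0 ± 3.04 RPKM (log2 fold change -1.02, adjusted p = 6.44e-06).

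The genes whose levels resembled each member most over the 18 libraries were taken by the Pearson correlation of log2 CPM, a description in which the points share organ, depth and library. Every member was lower in each tracheal library than in any lung library. A gene present in the lung and absent from the trachea therefore gains a high value by that contrast alone. For Sox17, Gimap4 and Sparcl1 the contrast includes the values by which they were picked.  Cdh5 was followed by the tight junction gene Cldn5 at 0.998, the phosphatase gene Ptprb at 0.998 and Pecam1 at 0.995. Erg was followed by Car4, a carbonic anhydrase of lung capillaries, at 0.996, Pecam1 at 0.996 and She at 0.996. Sox17 was followed by Arhgef15, Car4 and Myct1 at 0.998, 0.997 and 0.997, Egfl7 by Car4, Clec14a and Arhgef15 at 0.993, 0.992 and 0.992, and Emcn by Rasgrp3, Adgrl4 and Pecam1 at 0.998, 0.996 and 0.995.

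Tek was followed by Fgd5, Ldb2 and Gata2 at 0.997, 0.995 and 0.995. Gimap6 was followed by Ppp1r16b, Podxl and the Notch ligand gene Dll4 at 0.996, 0.992 and 0.992, and Gimap4 by Ppp1r16b, Podxl and Vwf, the gene of von Willebrand factor, at 0.991, 0.984 and 0.981. Kdr had the lowest leading value among the receptors, with Ptprb, Adgrl4 and Rasgrp3 at 0.986, 0.985 and 0.985. Sparcl1 was the exception, since its nearest genes were those of the elastic matrix, Eln at 0.998, Mfap4 at 0.997 and Mgp at 0.997.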

How the data were processed

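RNA of FACS-sorted cells was sequenced in 18 libraries. Reads were aligned to mm10 and summarised per Entrez gene with featureCounts of Rsubread, and the authors deposited raw counts with gene lengths, and no normalization (bcl2fastq 1.8.4 and mm10 are named in the submitters' processing notes). Whether counting used the strand is not given in the sources used here. There were 0 rows without a gene, and a series-wide table with the same 18 columns was left unused. Groups and mice came from the labels. The members and lists were chosen with earlier results of these data known, and other genes are named where they lead a list in EpCAM-negative cells, are gate genes, go against their list or are the 3 most correlated with a member. Genes named from counts of 5 or fewer, Angpt1, Gzma in the trachea and Gimap3 there were chosen after their values were seen.

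The 17989 genes that exceeded 0.2 CPM in 3 or more libraries entered a single edgeR 4.0.16 quasi-likelihood fit of all 18 libraries (R 4.3.3) with TMM factors, and the scripts were tested on simulated data. RefSeq GRCm38.p6 gave symbols and coordinates for 25275 of 27179 identifiers. Every pair of replicates differed by more than sampling noise (chi-square per degree of freedom of at least 3.51). Lung libraries of 1 mouse are paired by the labels, and the correlations of their deviations from the group means were -0.059 to 0.278. Alternatives were limma 3.58.1 (voom), DESeq2 1.42.0, other scalings and filters, the lung libraries alone, and the mouse as a block. Each lung library was also left out in turn.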

Additional observations from a re-analysis of the deposited data

How the results depend on the processing

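Of the 28 member differences that passed the test, 0 changed direction in any alternative and 16 passed in every one, among them all 5 of Kdr and 5 of 6 of Sparcl1. The count for EpCAM-negative against airway CD24hi cells was 6 in limma voom and 6 with the replicate block, against 3, and the block changed 2 other calls, of Sox17 and Tek between airway CD24lo and alveolar cells. Egfl7 between EpCAM-negative and alveolar cells no longer passed in limma voom, DESeq2 or the lung libraries alone (adjusted p = 0.0522, 0.0675 and 0.0918). Erg between airway CD24hi and alveolar cells was lost in limma voom (adjusted p = 0.0557). With library size alone as the scaling, the median of all genes moved most between airway CD24hi and alveolar cells, from -0.006 to 0.2897 on the log2 scale, Gimap6 there was gained at 1.28 (adjusted p = 0.0359), Gimap4 between EpCAM-negative and airway CD24hi cells was lost (adjusted p = 0.088), Emcn between EpCAM-negative and airway CD24lo cells had 0.0622 in place of -0.0723, and the members' summed RPKM was 0.464 in BSCs and 1816 in EpCAM-negative cells, against 0.393 and 1795.

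Without the lung libraries of mouse 4 (chosen after seeing the data) the counts were 9 for EpCAM-negative against airway CD24hi, 6 against airway CD24lo and 3 for airway CD24lo against alveolar cells. Erg and Emcn then had 0.45 and 0.23 between EpCAM-negative and airway CD24lo cells. Between airway CD24hi and alveolar cells Sox17 had -0.15, Gimap4 -0.10, Cdh5 -0.17, Tek -0.14, Emcn -0.20 and Egfl7 -0.41, and Egfl7 had -0.0577 between airway CD24lo and alveolar cells. None of these was a called difference, and the cause was not tested.

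Each lung library of the compared groups was left out in turn. The counts then ran from 6 to 10 for EpCAM-negative against alveolar, 2 to 9 against airway CD24hi and 2 to 5 against airway CD24lo cells. They ran from 2 to 9 between the airway groups, and from 2 to 4 and 2 to 7 for airway CD24hi and CD24lo against alveolar cells. Log2 fold changes that were not called crossed 0. Between the airway groups these were Cdh5 from -0.93 to 0.39, Egfl7 from -1.08 to 0.45, Erg from -1.09 to 0.18, Gimap6 from -1.18 to 0.18, Sox17 from -1.37 to 0.0637 and Tek from -1.01 to 0.0732. Between EpCAM-negative and airway CD24lo cells they were Egfl7 from -0.0461 to 0.99, Emcn from -0.40 to 0.43, Erg from -0.59 to 0.44 and Gimap4 from -0.23 to 0.64. Erg between EpCAM-negative and airway CD24hi cells ran from -0.0243 to 0.83, and between airway CD24hi and alveolar cells Egfl7 ran from -0.27 to 0.90 and Sox17 from -0.0575 to 1.15.

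The members' summed CPM as a percent of EpCAM-negative cells of the same mouse rests on Sparcl1. With it the mean over the mice was 7.42% in airway CD24hi, 13.6% in airway CD24lo and 9.51% in alveolar cells. Without it the means were 54.0%, 94.6% and 34.7%. Every member had 37 reads or more in every lung library, and in the trachea a level below 3 counts over 3 libraries was not detectable.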

Other observations

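Of 6 lymphatic genes, 5 passed the filter on low counts. In EpCAM-negative cells 3 of them (Prox1, Lyve1 and Flt4) were higher than in alveolar cells, 0 were called against airway CD24hi cells and 1, Prox1, the defining factor of lymphatic endothelium, was lower than in airway CD24lo cells (log2 fold change -1.02, edgeR adjusted p = 0.0288). Over all genes 32.7% were higher than in alveolar cells and 31.4% lower than in airway CD24lo cells. Prox1 rests on few reads, 6 to 7 in EpCAM-negative, 8 to 13 in airway CD24lo, 7 to 10 in airway CD24hi and 0 to 2 in alveolar libraries, and it had 61 to 67 in tracheal Non-basal libraries. Airway CD24hi and CD24lo cells held more of 1 (Prox1) and 2 (Prox1 and Lyve1) of the 5 than alveolar cells, against 30.5% and 24.2% of all genes. The summed level was 82.6, 67.6 and 62.4 CPM in the EpCAM-negative libraries of mice 4, 5 and 6, 33.5 to 121.5 in airway CD24lo, 21.9 to 64.5 in airway CD24hi and 16.9 to 36.4 in alveolar cells, and Lyve1 led the list with 22.1 RPKM in EpCAM-negative cells. Ccl21a had 0 reads in the alveolar libraries.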
